A study of Bos taurus with 4 samples.

Results

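Expression of the glucocorticoid axis was read in bovine granulosa cells through 7 genes, namely the receptor NR3C1, the enzymes HSD11B1 and HSD11B2, the cochaperone FKBP5, and the target genes TSC22D3, DUSP1 and PER1. They are 7 of the 15216 genes with a symbol on the array, matched by symbol in the platform annotation, which gave them 12 probes. NR3C1 was picked because its ratio between good and poor donors had stood out on these same 4 arrays, so its values are a description and carry no test. The other 6 genes were chosen by role. On 4 of 4 arrays NR3C1 gave more signal in the pool of good donors, and its log2 ratio averaged 0.60 ± 0.36 (SD, n = 4), or 1.52-fold. For the 6 genes chosen by role, 0 of 10 tested probes passed the adjusted threshold, and 0 kept 1 sign across the 4 arrays. The ratios of 4 of the 6 genes were at their lowest on array 4, though that of PER1 was only -0.0077 there. Ratios in general were widest on array 4, with an SD of 0.42 against 0.27 to 0.32 on the other arrays. How many of all tested genes were lowest on array 4 was not counted, so nothing is read from the 4 of 6.

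Cortisol enters the cell freely and binds NR3C1, which waits in the cytoplasm in a complex with heat shock proteins and immunophilins and then moves to the nucleus to switch target genes on or off. How much cortisol reaches the receptor is set inside the cell, where HSD11B1 regenerates cortisol from inactive cortisone and HSD11B2 does the reverse. FKBP5 joins the receptor complex, lowers its affinity for hormone and is itself induced by the receptor, which closes a feedback loop. In human and rat granulosa cells, HSD11B1 is known to increase and HSD11B2 to decline around the ovulatory surge of luteinizing hormone (LH).

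The granulosa cells came from Holstein cattle whose ovaries had been stimulated with hormone and then left to coast before collection, and they were pooled by how well the oocytes of their donors developed. The 4 good-donor pools came from donors of competent oocytes and the 4 poor-donor pools from donors of oocytes with poor competence, out of 94 animals in the study, and each array carried 1 pool of each kind. The good-donor pool was labelled with Cy5 on arrays 1 and 2 and with Cy3 on arrays 3 and 4. The number of animals in a pool is not given, all RNA went through linear amplification before labelling, and nothing settles whether the good donors were heifers, as the labels have it, or cows, as the design text has it. Age class and donor quality therefore cannot be told apart here, and p-values measure the spread between these arrays, not between animals.

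Values are normalised log2 intensities of a pool, or log2 ratios of good over poor within an array. A signal in a pool of many cells cannot tell apart fewer cells of a type and less RNA per cell. Of 8 granulosa markers, 8 were measured and 7 were above background in all 8 pools. All 8 had a mean ratio above 0, with a median of 0.17, beside 48.4% of all tested genes. For 2 of the 8 the ratio was above 0 on 4 of 4 arrays, beside 5.41% of all tested genes. They were FSHR, the receptor for follicle-stimulating hormone, and FOXL2, a transcription factor of granulosa cells. FOXL2 had only 2 of 4 poor-donor pools above background. The brightest markers, INHA and INHBA, were above 0 on arrays 1 and 2 and below 0 on arrays 3 and 4. The list medians were -0.14, 0.71, 0.28 and 0.14 on arrays 1 to 4. The part of these marker differences in the ratios of the 7 genes was not tested. The log2 of the markers' summed intensity ranged from 16.1 to 16.8 in good-donor pools and from 15.4 to 16.7 in poor-donor pools. Over all 31917 tested probes, 0 had a limma adjusted p under 0.05, which is 0% of probes, while 1133 had an unadjusted p under 0.05. Array 4 stood apart for epithelium and leukocyte markers, though not for markers of theca and stroma, endothelium, erythroid cells or oocytes. There, the log2 summed intensity of 6 epithelium markers was 12.1 in the good-donor pool and 15.8 in the poor-donor pool, and that of 8 leukocyte markers was 9.77 in the good-donor pool and 12.5 in the poor-donor pool.

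NR3C1 (gene ID 281946, probe EMBV3_40204) had log2 intensities of 9.58, 9.76, 9.58 and 9.62 in the good-donor pools of arrays 1 to 4, against 8.60, 8.93, 9.22 and 9.38 in the poor-donor pools. Every good-donor pool lay above every poor-donor pool, a pattern that 1.10% of all tested probes shared, while 0.790% had the opposite one. The good-donor pools lay close together, with a mean of 9.63 ± 0.08, while the poor-donor pools averaged 9.03 ± 0.34 (SD, n = 4 each). The poor-donor pools thus had the larger spread. The ratio was 0.97, 0.83, 0.36 and 0.24 on arrays 1 to 4. It averaged 0.90 over arrays 1 and 2 and 0.30 over arrays 3 and 4, where the dyes were exchanged, so the size of the ratio was larger in the first dye orientation while the sign was the same in both. A ratio above 0 on all 4 arrays was found for 5.10% of tested probes, and a mean of at least 1.5-fold in this direction for 0.226%. NR3C1 passed that fold by a small margin, since its mean was 1.52-fold. These values chose the gene, and nothing is read from their share of the background.

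**Figure D1:**
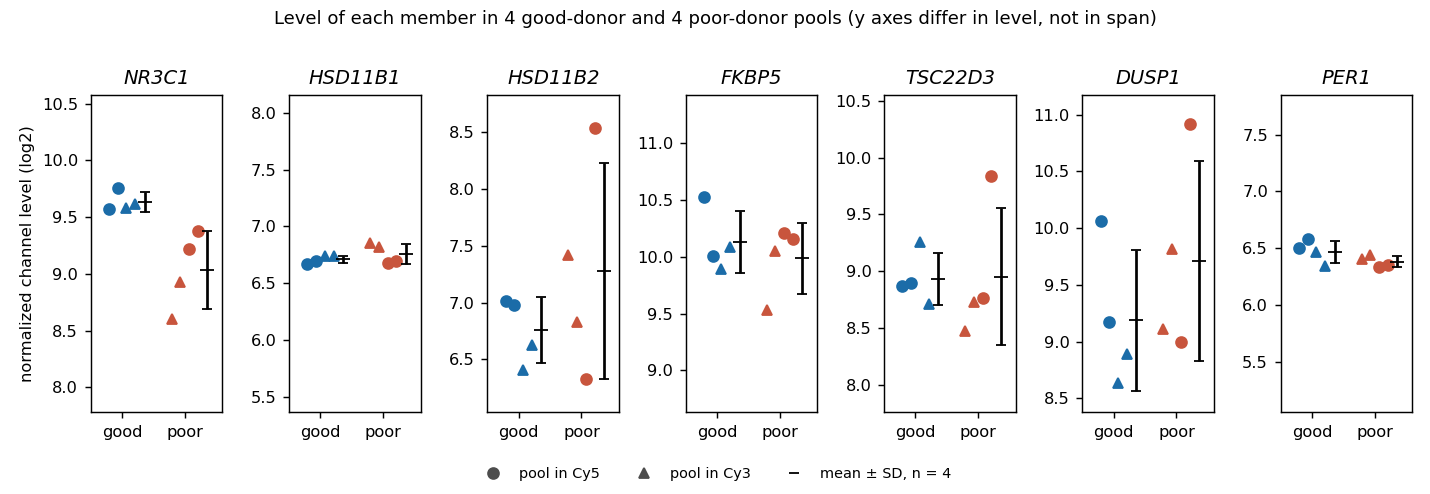
Normalised log2 intensity of the brightest tested probe of each of the 7 genes in 4 good-donor pools (left, blue) and 4 poor-donor pools (right, red); circles are pools in Cy5, triangles pools in Cy3, and bars are the mean ± SD (n = 4). The 4 good-donor pools of NR3C1, at 9.58 to 9.76, all lie above its 4 poor-donor pools, at 8.60 to 9.38, and the groups overlap for the other 6 genes.

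The enzyme that regenerates cortisol was dim in these cells. The brightest HSD11B1 probe (gene ID 282589, EMBV3_23153) had log2 intensities of 6.67, 6.69, 6.74 and 6.73 in good-donor pools, against 6.85, 6.81, 6.68 and 6.69 in poor-donor pools. The groups overlapped, and the 8 values spanned 0.18. The mean log2 ratio was -0.05 ± 0.12 (SD, n = 4), with a 95% interval from -0.22 to 0.12 and a limma adjusted p of 1. That interval leaves out 1.5-fold or more in this probe's normalised ratio. It sets no such limit on the transcript, since the probe was dim and compression of its ratio near background was not tested. The ratio was below 0 on arrays 1 and 2, at -0.18 and -0.12, and above 0 on arrays 3 and 4, at 0.06 and 0.04. It therefore followed the dye, as 16.2% of all tested probes did in this sense.

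The other HSD11B1 probes gave no steadier picture. EMBV3_04455 was above background in 7 of 8 channels and had ratios of 0.58, 0.09, 0.16 and -0.39, with a mean of 0.11 ± 0.40 (SD, n = 4, limma adjusted p = 1). EMBV3_15279 was above background in 6 of 8 channels and averaged 0.0067 ± 0.085 (SD, n = 4, limma adjusted p = 1). EMBV3_41888 was not well above background in any of the 8 channels and was not tested. The direction for HSD11B1 therefore depended on the probe, and no probe differed between the donor groups by more than the spread between arrays.

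HSD11B2, the enzyme that inactivates cortisol and is best known from kidney and other salt-transporting epithelia, was set apart by a single pool. Its probe (gene ID 282434, EMBV3_38835) had log2 intensities of 7.02, 6.98, 6.41 and 6.63 in good-donor pools, against 7.42, 6.83, 6.33 and 8.54 in poor-donor pools. The poor-donor pool of array 4 was the highest of the 8, and the other 7 pools overlapped. The log2 ratios were -0.40, 0.15, 0.08 and -1.91, with a mean of -0.52 ± 0.96 (SD, n = 4) and a 95% interval from -1.49 to 0.45 (limma adjusted p = 1). Without array 4 the mean was -0.06. The epithelium markers were high in that same pool, and their part in the HSD11B2 value was not tested.

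Within each array, the log2 ratio of HSD11B1 minus that of HSD11B2 asked whether the balance of activation and inactivation differed between donor groups. The difference was 0.22, -0.27, -0.02 and 1.96 on arrays 1 to 4, and averaged 0.47 ± 1.01 (SD, n = 4). An exact two-sided sign-flip permutation test over the 4 arrays gave p = 0.75, where the smallest p that 4 arrays allow is 0.13. The difference was above 0 on 2 of 4 arrays, and without array 4 its mean was -0.02. No shift in the balance of these transcripts was detectable with 4 arrays.

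**Figure D2:**
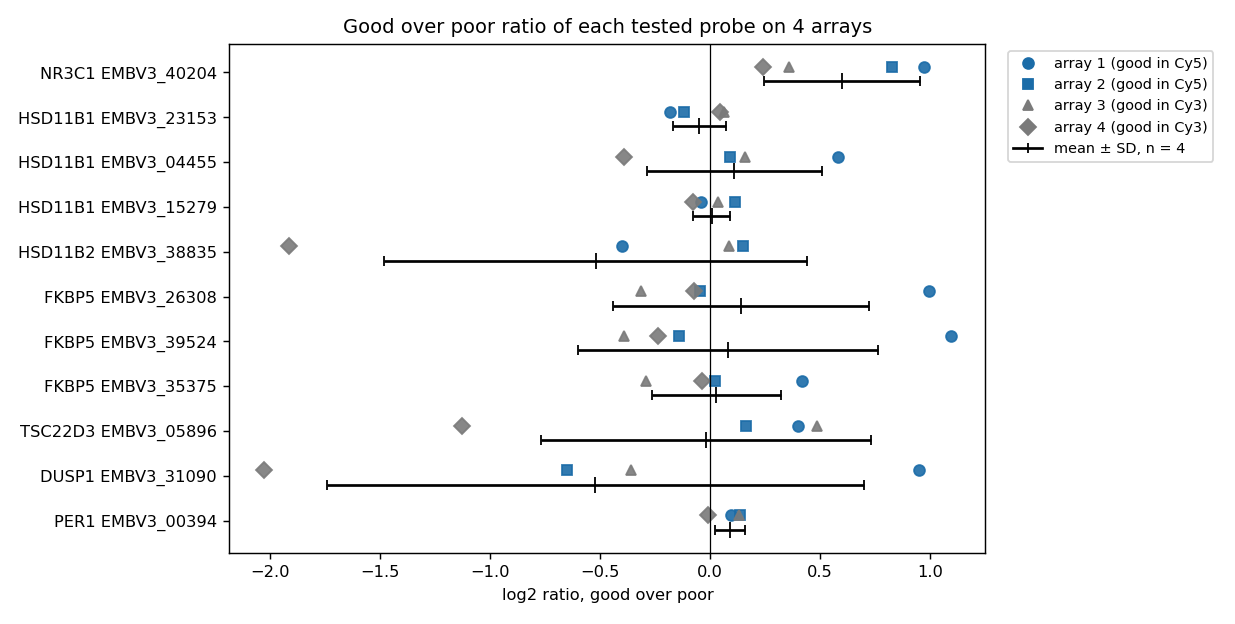
Log2 ratio of good over poor (horizontal axis) on each of the 4 arrays for the 11 tested probes, 1 row per probe, with the mean ± SD (n = 4) as bars; blue symbols are arrays with good donors in Cy5 and grey symbols arrays with them in Cy3. NR3C1 lies above 0 on all 4 arrays, while HSD11B2, TSC22D3 and DUSP1 reach -1.91, -1.13 and -2.03 on array 4.

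FKBP5, the feedback cochaperone, was measured by 3 probes that moved together. The brightest (gene ID 535704, EMBV3_26308) had log2 intensities of 10.53, 10.01, 9.90 and 10.09 in good-donor pools, against 9.53, 10.06, 10.21 and 10.16 in poor-donor pools. Array 1 held both the highest good-donor pool and the lowest poor-donor pool, and on arrays 2 to 4 the poor-donor pool was slightly the higher of the pair. The ratios of 1.00, -0.04, -0.31 and -0.07 averaged 0.14 ± 0.58 (SD, n = 4), with a 95% interval from -0.45 to 0.74 (limma adjusted p = 1). Without array 1 the mean was -0.14. The other probes had the same order of arrays 1 and 3 as highest and lowest, with ratios of 1.10, -0.14, -0.39 and -0.23 for EMBV3_39524 and of 0.42, 0.02, -0.29 and -0.04 for EMBV3_35375. Over the 8 pools, which share arrays and dyes, Pearson's r between pairs of FKBP5 probes was 0.955, 0.657 and 0.719.

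**Figure D3:**
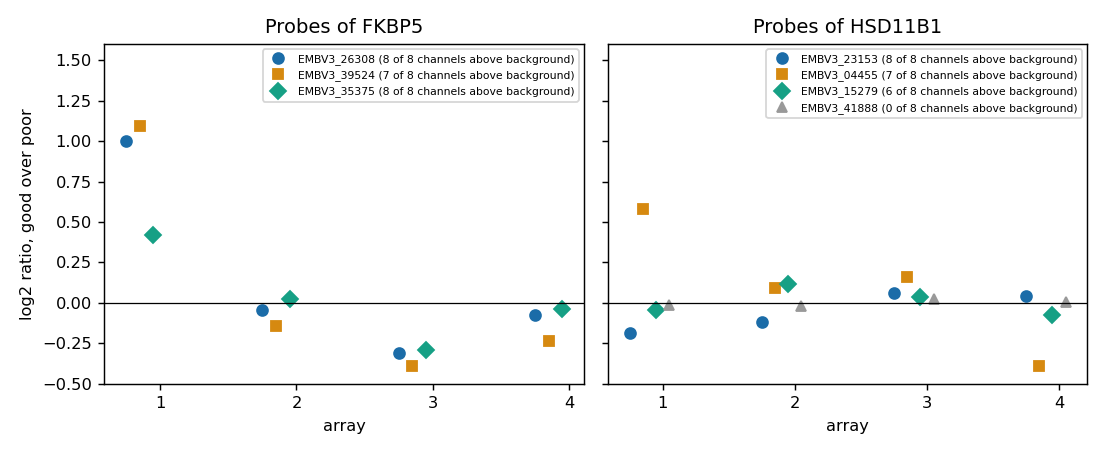
Log2 ratio of good over poor (vertical axis) on arrays 1 to 4 for each probe of FKBP5 (left) and HSD11B1 (right), with the number of channels above background in the legend; EMBV3_41888 was in none and was not tested. The 3 FKBP5 probes share their highest ratio on array 1 (1.00, 1.10 and 0.42) and their lowest on array 3, while the HSD11B1 probes differ in sign.

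TSC22D3 encodes the glucocorticoid-induced leucine zipper, a protein that restrains inflammatory transcription factors. Its probe (gene ID 100125309, EMBV3_05896) had log2 intensities of 8.87, 8.89, 9.25 and 8.71 in good-donor pools, against 8.47, 8.73, 8.77 and 9.84 in poor-donor pools. The good-donor pool was higher on arrays 1 to 3, and on array 4 the poor-donor pool was the highest of all 8. The ratios were 0.40, 0.16, 0.49 and -1.13, and their mean was -0.02 ± 0.75 (SD, n = 4), with a 95% interval from -0.78 to 0.74 (limma adjusted p = 1). Without array 4 the mean was 0.35. The sign of so small a mean also turned with the normalisation, to 0.0099 with median centring and to 0.0082 with the authors' deposited ratios.

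DUSP1 encodes a phosphatase that switches off MAP kinases. It is both a glucocorticoid target and an immediate early gene of stressed or stimulated cells. Its probe (gene ID 539175, EMBV3_31090) had log2 intensities of 10.06, 9.17, 8.64 and 8.89 in good-donor pools, against 9.11, 9.82, 9.00 and 10.92 in poor-donor pools. The poor-donor pool of array 4 was again the highest of the 8, and the groups overlapped. The ratios of 0.95, -0.65, -0.36 and -2.03 averaged -0.52 ± 1.22 (SD, n = 4), with a 95% interval from -1.75 to 0.71 (limma adjusted p = 1). The mean was -0.02 without array 4 and -1.01 without array 1. Leukocyte and epithelium markers were also at their highest in that poor-donor pool, and their part in the TSC22D3 and DUSP1 values was not tested.

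PER1 encodes a component of the circadian clock whose gene the receptor binds. Its probe (gene ID 516318, EMBV3_00394) was dim, with log2 intensities of 6.50, 6.58, 6.46 and 6.34 in good-donor pools, against 6.40, 6.44, 6.33 and 6.35 in poor-donor pools. The good-donor pool was higher on arrays 1 to 3 and the pair was level on array 4, with the groups overlapping. The ratios of 0.096, 0.14, 0.13 and -0.0077 averaged 0.09 ± 0.07 (SD, n = 4). The 95% interval from -0.05 to 0.23 leaves out 1.5-fold in this probe's normalised ratio (limma adjusted p = 1). For the transcript it sets no such limit, since compression of so dim a probe's ratio was not tested.

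Of the 10 tested probes of the genes chosen by role, 6 had a mean ratio above 0 and 4 below 0, beside 49.2% above 0 among all tested probes. An average change of at least 1.5-fold was found for 0 of the 10. Of all tested probes, only 0.226% were higher and 0.952% lower by that fold, so 0 of 10 does not set these probes apart. For 0 of the 10 did the 95% interval leave out 0. In 2 of the 10 the sign followed the dye on all 4 arrays, as it did in 1 sense for 13.2% and in the other for 16.2% of all tested probes. The intervals differed in width. They were narrow for PER1 and for the HSD11B1 probes EMBV3_23153 and EMBV3_15279. These probes were dim, and compression of their ratios near background was not tested. The HSD11B1 probe EMBV3_04455 had a wider interval, from -0.31 to 0.53. For HSD11B2, TSC22D3, DUSP1 and the brightest FKBP5 probe the intervals held both 0 and a change of 1.5-fold. A change of that size was thus not detectable with these probes on 4 arrays. The FKBP5 probe EMBV3_35375 had a narrower interval, from -0.29 to 0.35.

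The receptor's partners were set beside the members by counts, and 0 genes of any of the lists below passed the adjusted threshold in either direction. All 12598 tested genes had a median log2 ratio of -0.0030, and 48.4% had a mean above 0. At an unadjusted limma p under 0.05 there were 584 of them. Of 15 tested chaperones of the receptor complex, 6 had a mean above 0 and 9 below, and the median was -0.01. HSP90AA1, the inducible cytosolic HSP90, had a mean ratio of -0.0060 ± 0.39, and HSPA8, the constitutive HSP70, had -0.03 ± 0.33 (SD, n = 4). PTGES3, the p23 cochaperone that stabilises the hormone-binding form, had -0.32 ± 0.32, while its other probes gave -0.04 and -0.16. FKBP4, which competes with FKBP5 for the receptor complex and favours hormone binding, had 0.16 ± 0.23 (SD, n = 4). AHSA1, an activator of the HSP90 ATPase, had ratios below 0 on 4 of 4 arrays, at -0.14 ± 0.14 (SD, n = 4). It was the 1 gene of 15 to do so, beside 4.65% of all tested genes. Its other probe averaged -0.08 but was above 0 on arrays 3 and 4, at 0.10 and 0.11.

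Of 18 tested coregulators of nuclear receptors, 7 had a mean above 0 and 11 below, with a median of -0.02, and 2 had an unadjusted limma p under 0.05. For 2 of the 18 the ratio was above 0 on all 4 arrays and for 3 it was below 0 on all 4, beside 5.41% and 4.65% of all tested genes. NRIP1, a corepressor of nuclear receptors, was 1 of the 2, with 1.05, 0.02, 0.38 and 0.17 on arrays 1 to 4, while its other probe averaged 0.02. NCOR1, a corepressor that recruits histone deacetylase, was the other, with ratios of 0.24, 0.22, 0.53 and 0.33. Its mean was 0.33 ± 0.14 (limma adjusted p = 1, SD, n = 4). The 3 genes below 0 on all arrays were PPARGC1A, GMEB2 and NCOA2, named after their values were seen, with means of -0.13, -0.10 and -0.08, and NCOA2 exceeded background in only 2 good-donor pools. PRMT1, an arginine methyltransferase that acts as a coactivator, had 0.32 ± 0.29, and its other probe gave 0.13. SMARCA4, the ATPase of a chromatin remodelling complex, had -0.09 ± 0.21, and TRIM28 had -0.10 ± 0.26 (SD, n = 4).

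Of 5 tested relatives of the receptor, 4 had a mean above 0, with a median of 0.07. NR3C2, the mineralocorticoid receptor, binds cortisol too, and in kidney HSD11B2 shields it from cortisol. Its ratios were 0.13, -0.18, -0.01 and -1.41, with a mean of -0.37 ± 0.70 (SD, n = 4). The lowest value was on array 4, as for HSD11B2, but only 2 of 4 good-donor and 2 of 4 poor-donor pools were above background for NR3C2, so its size is uncertain. PGRMC1, a membrane haem-binding protein linked to progesterone action, had 0.11 ± 0.33 (SD, n = 4), and its other probes gave 0.15 and 0.08. ESR2, the oestrogen receptor of granulosa cells, had 0.07 ± 0.10 (SD, n = 4).

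Of 10 tested genes that make, carry or clear glucocorticoids, 5 had a mean above 0 and 5 below, with a median of -0.02. CYP11A1, which starts steroid synthesis from cholesterol, had -0.09, -0.56, 0.18 and 1.96 on arrays 1 to 4, with a mean of 0.37 ± 1.10 (SD, n = 4). HSD3B1, which makes progesterone from pregnenolone, had 0.97, -0.72, 0.17 and -0.14 on arrays 1 to 4, and a mean of 0.07 ± 0.70 (SD, n = 4). CYP3A5 and CYP3A4, hepatic and intestinal cytochromes that hydroxylate cortisol, had ratios of -1.88 and -1.81 on array 4, opposite in sign to CYP11A1 there. On arrays 1 to 3 they lay between -0.08 and 0.11, so their means of -0.45 ± 0.95 and -0.43 ± 0.92 (SD, n = 4) came from 1 array. The 2 are close relatives and can share probe signal. SRD5A1, a steroid reductase, had -0.23 ± 0.32 (SD, n = 4).

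Of 38 tested genes that glucocorticoids induce, among them 4 of the members, 16 had a mean above 0 and 22 below, with a median of -0.02. On array 1 the good-donor pool was higher for 31 of 38 genes, beside 53.1% of all tested genes, and the list medians on arrays 1 to 4 were 0.28, -0.27, -0.05 and -0.22. CEBPD, a transcription factor, had 1.83, -0.67, -0.87 and -0.80, and a mean of -0.13 ± 1.31, while its other probe averaged 0.32. MT1A, a metallothionein, had -0.24 ± 1.08, and ANXA1, an anti-inflammatory annexin, had -1.14 ± 1.69 with -3.23 on array 4 (SD, n = 4). PCK1, the gluconeogenic enzyme, had ratios of -3.81, 0.05, -0.21 and -4.69, which set 2 poor-donor pools far above the other pools. GLUL, glutamine synthetase, had ratios below 0 on 4 of 4 arrays, with a mean of -0.67 ± 0.42 (SD, n = 4, limma adjusted p = 1). It was the 1 gene of 38 (2.6%) below 0 on all 4, beside 4.65% of all tested genes. It was also the 1 gene of 38 with an unadjusted limma p under 0.05, beside 584 of the 12598 tested genes. Neither count was above the background.

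**Figure D4:**
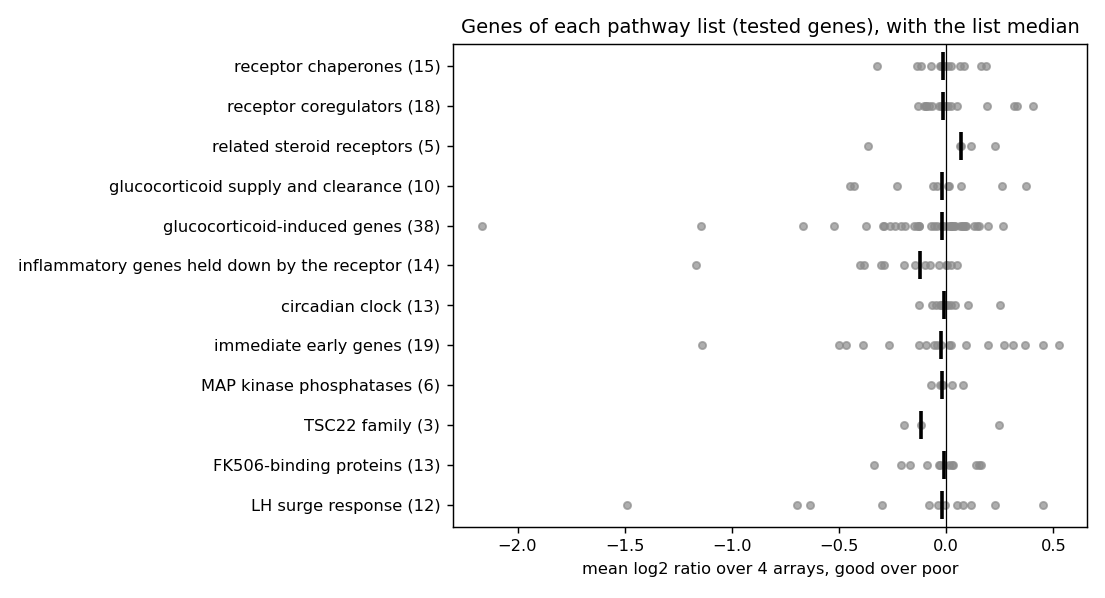
Mean log2 ratio of good over poor over 4 arrays (horizontal axis) for every tested gene of 12 pathway lists (points), with the list median as a black bar and the number of tested genes in parentheses. All 12 list medians lie between -0.12 and 0.07.

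Of 14 tested inflammatory genes that the receptor is known to hold down, 3 had a mean above 0 and 11 below, with a median of -0.12. For 3 of the 14 the good-donor pool was lower on all 4 arrays, beside 4.65% of all tested genes and 4.17% of all tested probes. The 3 were IL1A, TNF and IL6. TNF had a mean of -0.15 ± 0.12 and IL6 of -0.10 ± 0.04 (SD, n = 4). The IL6 probe exceeded background in only 2 good-donor pools, and the other IL6 probe averaged 0.01. IL1A had ratios of -0.49, -1.58, -0.86 and -1.74 (mean -1.17 ± 0.59, SD, n = 4, limma adjusted p = 1). PLAU, the urokinase protease, had -0.40 ± 1.08, and NOS2, the inducible nitric oxide synthase, had 0.0013 ± 0.33 (SD, n = 4). Leukocyte markers, of which 8 of 10 were tested, had means below 0 for 8 of 8 and list medians of 0.04, -0.59, -0.03 and -1.44 on arrays 1 to 4. The medians of the inflammatory genes were 0.08, -0.06, -0.05 and -0.24, so array 4 was the lowest for both lists, and the part of leukocyte RNA in the inflammatory values was not tested.

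Of 13 tested clock genes, the partners of PER1, 6 had a mean above 0 and 7 below, with a median of -0.01. BHLHE41, a repressor of clock-driven transcription, had 0.25 ± 0.22 (SD, n = 4), with ratios above 0 on 3 of 4 arrays. NPAS2, which stands in for CLOCK in some tissues, had -0.64 on array 1 and between 0.33 and 0.37 on the others. The kinase CSNK1D, which phosphorylates period proteins, had -0.13 ± 0.49, and the nuclear receptors NR1D1 and NR1D2 had -0.07 ± 0.09 and -0.05 ± 0.13 (SD, n = 4). NR1D1 was above background in 3 good-donor and 4 poor-donor pools and NR1D2 in 3 of each, so these sizes are uncertain.

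The immediate early genes were listed without DUSP1, which was counted among the glucocorticoid-induced genes. Of the 19 tested, 9 had a mean above 0 and 10 below, with a median of -0.02. On array 1 the good-donor pool was higher for 16 of 19, and on array 4 it was lower for 18 of 19, beside 53.1% and 51.1% of all tested genes. The list medians were 0.81, 0.03, 0.06 and -1.02 on arrays 1 to 4. FOS had 0.92, 0.22, -0.0065 and -1.22, and its dimmer probe gave 0.24, 0.16, 0.18 and 0.14. BTG2, an antiproliferative gene, had 1.18, 0.41, 0.52 and -1.03. JUN had 1.23, 0.15, 1.06 and -0.34, while KLF4 had -0.02, -0.88, -0.17 and -3.49, and MYC had 0.60, -0.64, -0.95 and -1.01. DUSP1, at 0.95 on array 1 and -2.03 on array 4, had the same signs on these arrays as the medians of this list and of the glucocorticoid-induced genes. Of the 6 tested MAP kinase phosphatases, DUSP6 had 0.08 ± 0.38 and DUSP14 -0.07 ± 0.38, and 5 of 6 were lower in the good-donor pool on array 4.

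**Figure D5:**
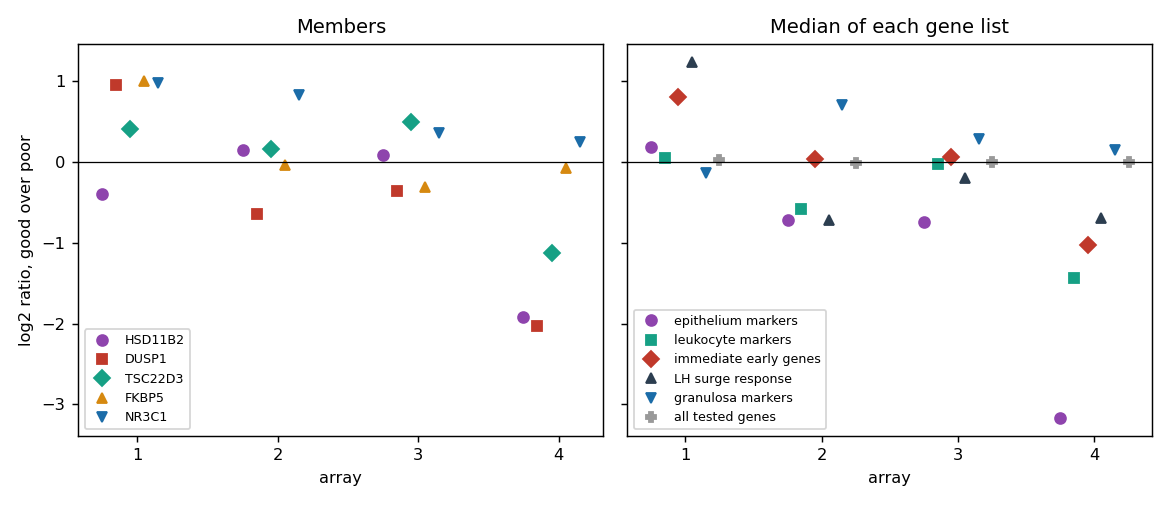
Log2 ratio of good over poor (vertical axis) on arrays 1 to 4, for 5 of the genes on the left and as the median of gene lists and of all tested genes on the right. Immediate early genes have medians of 0.81 on array 1 and -1.02 on array 4, and epithelium markers reach -3.17 on array 4, while the medians of all tested genes stay within 0.02 of 0.

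The families of TSC22D3 and FKBP5 were small and uneven. Of 3 TSC22 genes, TSC22D4 had 0.24 ± 0.46, TSC22D1 -0.20 ± 0.63 and TSC22D2 -0.12 ± 0.18 (SD, n = 4). The other probe of TSC22D1 averaged -0.02, and that of TSC22D2 averaged 0.04. Of 13 FK506-binding proteins, 6 had a mean above 0 and 7 below, with a median of -0.01. FKBP1A, the immunophilin FKBP12, had -0.34 ± 0.32, and its other probe gave -0.13. FKBP3, a nuclear immunophilin, had 0.14 ± 0.30 (SD, n = 4), and FKBP11 had -0.17 ± 0.70. Of 12 tested genes of the LH surge response, 5 had a mean above 0 and 7 below, with list medians of 1.24, -0.72, -0.19 and -0.70 on arrays 1 to 4. STAR, which carries cholesterol into mitochondria and is named here after its values were seen, had 3.65 on array 1 and between -1.05 and -0.20 on the others. TNFAIP6, a protein of the expanding cumulus matrix, had 2.38, -1.33, -0.36 and -0.22. VNN2 had 0.73, -2.72, -0.19 and -3.78, and RUNX1 lay between -0.11 and 0.01. On array 1 the good-donor pool was higher for 11 of the 12 genes, beside 53.1% of all tested genes. PGR was the exception, with -0.20 on array 1 and 0.31 to 0.40 on the others. Among the 11, HAS2, PTGS2 and RUNX1 exceeded background in only 2 good-donor pools each, so their ratios are uncertain. By list medians, array 1 was thus the highest for LH surge genes and immediate early genes, as it was for FKBP5. The same held for most other lists, among them TSC22 genes (0.53), glucocorticoid-induced genes (0.28) and markers of theca and stroma (0.31). It did not hold for chaperones, coregulators, related steroid receptors, FK506-binding proteins, granulosa markers or oocyte markers. A high array 1 is therefore not particular to the lists named beside FKBP5.

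The members were also set against each other and against other genes over the 8 pools, as a description, with the intensities of each dye centred on their own mean. The 8 pools share 4 arrays, so the points are not independent. Pearson's r was 0.801 between HSD11B2 and DUSP1, 0.541 between HSD11B2 and TSC22D3 and 0.501 between TSC22D3 and DUSP1, the 3 genes with a high poor-donor pool on array 4. NR3C1 and HSD11B1 had r = -0.858, the largest in size among the pairs of members. The HSD11B1 probe, however, had an SD of only 0.039 over the 8 pools. Its r with the other tested HSD11B1 probes was -0.27 (EMBV3_04455) and -0.07 (EMBV3_15279). No relation between the 2 genes is therefore read from this value. The genes most like NR3C1 among 2828 candidates were APOA1, DCP1B and DEXI, with r of 0.985, 0.958 and 0.955. The genes most like FKBP5 were TUBA1D, NUDT11 and CROCC, with r of 0.963, 0.951 and 0.95. For DUSP1 they were ESRP1, TMC5 and THBD, with r of 0.985, 0.984 and 0.980, and for HSD11B2 they were CKMT1A, RPS6KA1 and FUT6, with r of 0.988, 0.984 and 0.982. For TSC22D3 they were HP, IGBP1 and GIMAP1, with r of 0.978, 0.976 and 0.968. The 2 dim genes had MARCHF2, ACTB and UBN2 (HSD11B1, r of 0.965, 0.949 and 0.948) and ORMDL1, POLR2D and CDH24 (PER1, r of 0.946, 0.938 and 0.928). With so many candidates and 8 pools, values of this size are a ranking and not a finding.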

How the data were processed

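Granulosa RNA of 4 good-donor and 4 poor-donor pools was measured on 4 two-colour arrays. The deposited scanner files give each spot's foreground and background intensity, as mean and median, on a linear scale and without flags, per the file headers. The authors also deposited normalized log2 ratios whose method is not stated in the sources used here. Their Pearson's r with Cy5 over Cy3 was -0.98, -0.97, 0.96 and 0.98 on arrays 1 to 4, so they run as poor over good; their column medians were 0.023, 0.0039, -0.015 and -0.029. They were used as an alternative.

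Mean foreground was corrected by normexp with median local background and an offset of 50, normalized by loess within arrays with control spots at weight 0, and by Aquantile between arrays (limma 3.58.1, statmod 1.5.0, R 4.3.3). The dye labels gave the direction, and every ratio was set as good over poor. Of 43794 probes, 31917 were tested, because in at least 4 of 8 channels they were brighter than the 95th percentile of that channel's dark and negative controls. The mean of the 4 ratios was tested against 0 with lmFit and eBayes of limma, two-sided, adjusted by Benjamini-Hochberg over all tested probes, with a threshold of 0.05. Median foreground was 49.9 to 54.3 in Cy5 and 90.5 to 132 in Cy3, and the number of arrays limits the precision. Symbols are those of an old platform annotation. Of its 15229, 14114 were in the RefSeq table (assembly ARS-UCD2.0), 982 were updated by synonym and 133 kept. A gene is represented by its brightest tested probe.

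The members and lists were chosen with earlier results of these data known. Named genes are all 7 members, per list up to 3 genes with the smallest unadjusted p and up to 2 with the highest level, and per member the 3 genes with the highest r over 8 pools among probes with an SD of at least 0.2. The procedure was tested on simulated data. Alternatives changed the background correction, foreground measure, normalization, filter, dye term, model, source of values, probe and arrays. Probe, promoter and protein sequences were not used here.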

Additional observations from a re-analysis of the deposited data

Results flagged for a closer look

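Of 52 sets of 4 values examined, 7 held a sample far from the others, and chance flags about 1 in 20 groups, or 2.6 of 52. The HSD11B1 probe EMBV3_15279 had a log2 intensity of 6.17 in the poor-donor pool of array 2 and 6.31 to 6.32 in the others. The HSD11B1 probe EMBV3_04455 had 6.85 in the good-donor pool of array 1, with the other good-donor pools at 6.38 to 6.43, and 6.77 in the poor-donor pool of array 4, with the other poor-donor pools at 6.26 to 6.32. The FKBP5 probe EMBV3_39524 had a log2 ratio of good over poor of 1.10 on array 1 and of -0.39 to -0.14 on the others. Its log2 intensity was 7.05 in the good-donor pool of array 1, with 6.34 to 6.44 in the other good-donor pools. None of these 3 probes is the one that represents its gene. On array 4 the median ratio of related steroid receptors was -0.053, with 0.127 to 0.136 on arrays 1 to 3. Genes for glucocorticoid supply and clearance had a median of -0.22 on array 4, with 0.0043 to 0.030 on arrays 1 to 3.

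For 2 probes the good over poor ratio had opposite signs in the 2 dye orientations. The HSD11B1 probe EMBV3_23153 averaged -0.15 where good donors were in Cy5 and 0.05 where they were in Cy3, and its limma dye term was -0.10 (adjusted p = 0.323). The FKBP5 probe EMBV3_35375 averaged 0.22 where good donors were in Cy5 and -0.16 where they were in Cy3, and its dye term was 0.19 (adjusted p = 0.392). Of all tested probes, 16.2% had the first of these patterns and 13.2% the second. Orientation means alone, without agreement of single arrays, differed in sign for other probes too. With good donors in Cy5 and in Cy3 they were 0.48 and -0.19 for the brightest FKBP5 probe. They were 0.28 and -0.32 for TSC22D3, and 0.15 and -1.19 for DUSP1. For NR3C1, HSD11B2 and PER1 both means had the same sign.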

How the results depend on the processing

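With limma, 0 probes passed under every alternative run, and the smallest adjusted p was 0.064, with separate channels, while 636 to 1838 probes had an unadjusted p under 0.05. For NR3C1, which its ratio chose, the alternatives gave means from 0.60 to 0.65, and leaving out an array gave 0.48 to 0.72. The filters, the dye term and separate channels cannot change a mean ratio, so they bear on the p-values alone. The HSD11B1 ratio turned to 0.023 with median foreground, and to 0.0067 and 0.11 with its other probes. That of TSC22D3 turned to 0.0099 with median centring and to 0.0082 with the authors' deposited ratios. Leaving out each array in turn gave ranges of -0.14 to 0.29 for FKBP5, -0.19 to 0.35 for TSC22D3, -1.01 to -0.02 for DUSP1, -0.74 to -0.06 for HSD11B2, -0.09 to -0.0048 for HSD11B1 and 0.07 to 0.12 for PER1. It gave -0.025 to 0.72 for the HSD11B1 minus HSD11B2 difference. The turned signs belong to means smaller than their SD over arrays, and the cause was not tested. Array 4 moved the means of HSD11B2 and TSC22D3 most, array 1 that of FKBP5, and arrays 1 and 4 moved that of DUSP1 about equally, in opposite directions. HSD11B1 and PER1 were dim, so compression of their ratios near background was not tested. All arrays lay on 1 slide, so a fit with the slide as a block was not run. The ratio already pairs the good-donor and poor-donor pool of each array. No further pairing was possible, because the donor groups share no replicate numbers beyond the array itself.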

Other observations

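Cells other than granulosa cells were read from markers. Of 6 tested epithelium markers, 6 had a mean ratio below 0, with list medians of 0.18, -0.72, -0.74 and -3.17 on arrays 1 to 4. Among them KRT4 had -3.22 ± 2.27 and EPCAM -1.36 ± 1.15 (SD, n = 4), while the other EPCAM probe gave 0.02. The KRT4 probe exceeded background in 3 good-donor and 4 poor-donor pools, so its size is uncertain. Of 7 tested markers of theca and stroma, 4 had a mean above 0 and 3 below, and their summed log2 intensity was 12.5 to 13.1 in good-donor pools and 12.5 to 13.2 in poor-donor pools. CYP17A1, the theca enzyme of androgen synthesis, had 0.01 ± 0.06 (SD, n = 4), with 4 of 4 good-donor and 3 of 4 poor-donor pools above background. Oocyte markers, of which 3 of 6 were tested, summed to 7.95 to 8.01 in good-donor pools and 7.94 to 8.05 in poor-donor pools. Endothelium markers summed to 8.31 to 8.75 in good-donor pools and 8.26 to 8.69 in poor-donor pools, and the haemoglobin genes to 7.76 to 9.35 in good-donor pools and 7.73 to 8.78 in poor-donor pools.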
